A study of Arabidopsis thaliana with 30 samples.

Results

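In germinating Arabidopsis seeds, sampled when 48 hours had passed since imbibition began (48 HAI, hours after imbibition), the mRNA recovered from polysomes was compared with total mRNA, gene by gene, on 6 of the 30 arrays of the series. These are the 3 arrays labelled P 48h (polysomal mRNA) and the 3 arrays labelled T 48h (total mRNA), chosen by their labels alone. All of them come from after-ripened seeds of the accession Col-0 that were imbibed in water under continuous light, and each replicate was a bulk of plants that the labels call a biological replicate. No mutant, transgene or treatment distinguishes the groups: the polysomal and the total arrays differ in the RNA fraction only, and the extraction buffer of both contained cycloheximide and chloramphenicol, which hold ribosomes on the mRNA. The other 24 arrays cover dry seeds and 6, 26 and 72 HAI in the same fractions, with 3 replicates in each of 10 groups, and those of 26 and 72 HAI are used here as the stages before and after.

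A polysome is an mRNA that carries several ribosomes at once, and the amount of an mRNA found there, relative to its total amount, is a common measure of how heavily it is engaged in translation. In a sucrose gradient polysomes sink below single ribosomes and free mRNA, so that they can be collected as separate fractions. Dry seeds store mRNA with few ribosomes on it, and translation resumes upon imbibition, before the radicle breaks through the seed coat. RNA was taken from whole seeds, so a difference between cell types and a difference within cells cannot be told apart.

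All values are log2 signals, so a difference of 1 corresponds to a 2-fold change and a level of 4 is taken as the noise level. The difference of polysomal minus total mRNA is called polysome occupancy, and it is a relative measure, since the normalization brings all arrays to a common scale. Of the 27827 genes on the array, 17061 exceeded 4 on each replicate array of 1 or more groups and were tested. The 3 polysomal arrays had medians of 5.44 to 5.58 over these genes, and the 3 total arrays of 5.42 to 5.47. Replicates correlated with r of 0.974 to 0.976 within polysomal mRNA and 0.976 to 0.982 within total mRNA across genes, which are not independent replicates. Between the 2 fractions the gene means correlated with r = 0.929. Of the genes that mark the endosperm and seed coat, 3 of 5 were tested, and their median level per array was 6.03 to 7.15 in polysomal and 6.95 to 7.67 in total mRNA. The photosystem genes of the greening embryo had median levels of 8.79 to 8.89 in polysomal and 8.39 to 8.64 in total mRNA.

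At 48 HAI 15337 of the 17061 genes tested were called in neither direction, and those that were called reached much further downwards than upwards. With limma and an adjusted p below 0.05 together with a difference above 1 in size, 632 genes were higher in polysomal than in total mRNA (3.70% of those tested) and 1092 genes were lower (6.40%). The largest positive difference was 1.95, whereas 278 genes were lower by more than 2 and 90 by more than 3 on the log2 scale, down to a difference of -6.82. Of the 1092 lower genes 535 had a mean above the noise level in total mRNA only, and 143 of the 632 higher genes in polysomal mRNA only. Among genes above the noise level on all 6 arrays 411 were higher and 396 lower, so the excess of lower genes was not seen there. Over all genes tested the median difference was 0.10, with 9740 positive and 7321 negative. The values of the polysomal and total arrays did not overlap for 628 of the 632 higher and 1083 of the 1092 lower genes. Such a separation was also common among all genes tested, with 29.8% lying above and 19.1% below without overlap. When the arrays were set to equal medians, the median difference moved by 0.11, to 0.21, and 985 genes were called higher and 886 lower. The share of higher genes among the calls was then 52.6%, against 36.7% in the main analysis, so the balance between the directions depends on the scaling. Tested against a 2-fold change rather than against no change, 6 genes were higher and 290 lower.

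**Figure D1:**
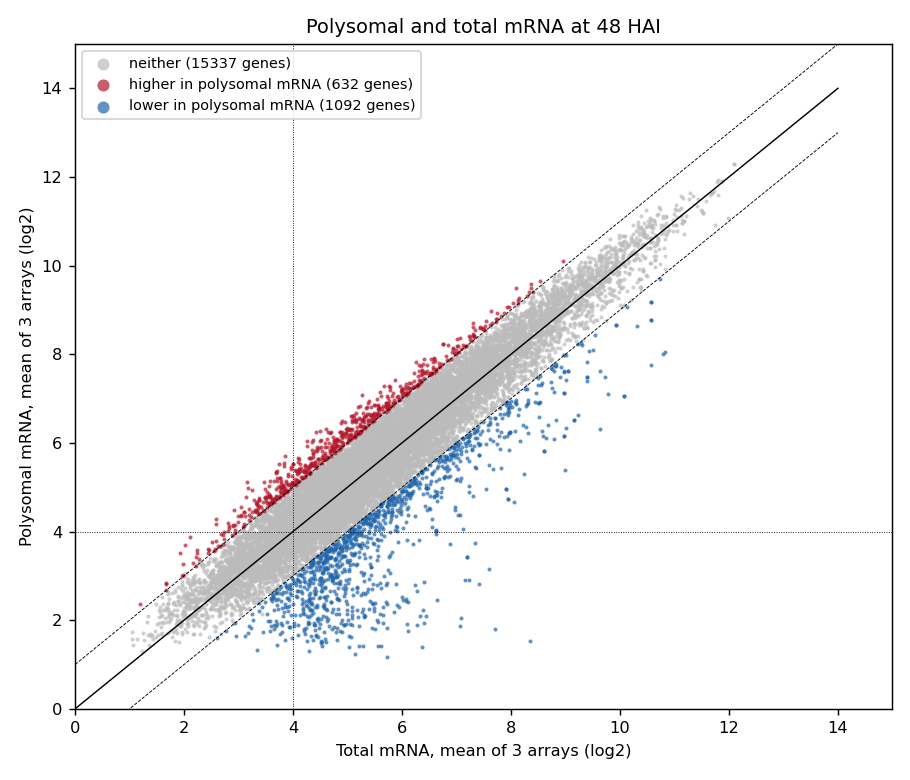
Mean log2 level of each of the 17061 genes tested, with polysomal mRNA at 48 HAI on the vertical and total mRNA at 48 HAI on the horizontal axis (3 arrays each). Solid line, equal levels; dashed lines, a difference of 1 in either direction; dotted lines, the noise level of 4. The 632 higher genes lie in a narrow band above the line, and the 1092 lower genes reach far below it, many of them at polysomal levels below 4.

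The 10 genes with the largest positive differences lay between 1.71 and 1.95. They were taken only from genes with non-overlapping fractions and with every polysomal array above the noise level. The first was CDKB2;2, a plant-specific cyclin-dependent kinase that acts at the entry into mitosis. Its polysomal arrays gave 5.13, 5.08 and 5.13, and its total arrays 3.11, 3.54 and 2.82. The polysomal values were thus tightly grouped and all above the total values, which were under the noise level. The difference was 1.95 (standard error 0.27, adjusted p = 5.16e-06 in limma), and at 26 HAI it had been -0.41.

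ACS9, one of the synthases that make the precursor of ethylene, had 5.70, 5.50 and 5.89 in polysomal mRNA, against 4.39, 3.27 and 3.91 in total mRNA (difference 1.84, adjusted p = 8.85e-05 in limma). FAP3, a fatty-acid-binding protein of the plastid, had 6.05, 6.40 and 6.28 in polysomal and 4.23, 4.26 and 4.79 in total mRNA, a difference of 1.82 (adjusted p = 1.01e-07). For both genes every polysomal array exceeded every total array, which the rule of choice required. SBP2, a selenium-binding protein, followed with a difference of 1.77. The remaining 6, AT2G38740, AT3G28956, AT4G25180, AT5G49560, AT5G25490 and AT5G67385, carry no gene symbol in RefSeq.

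**Figure D2:**
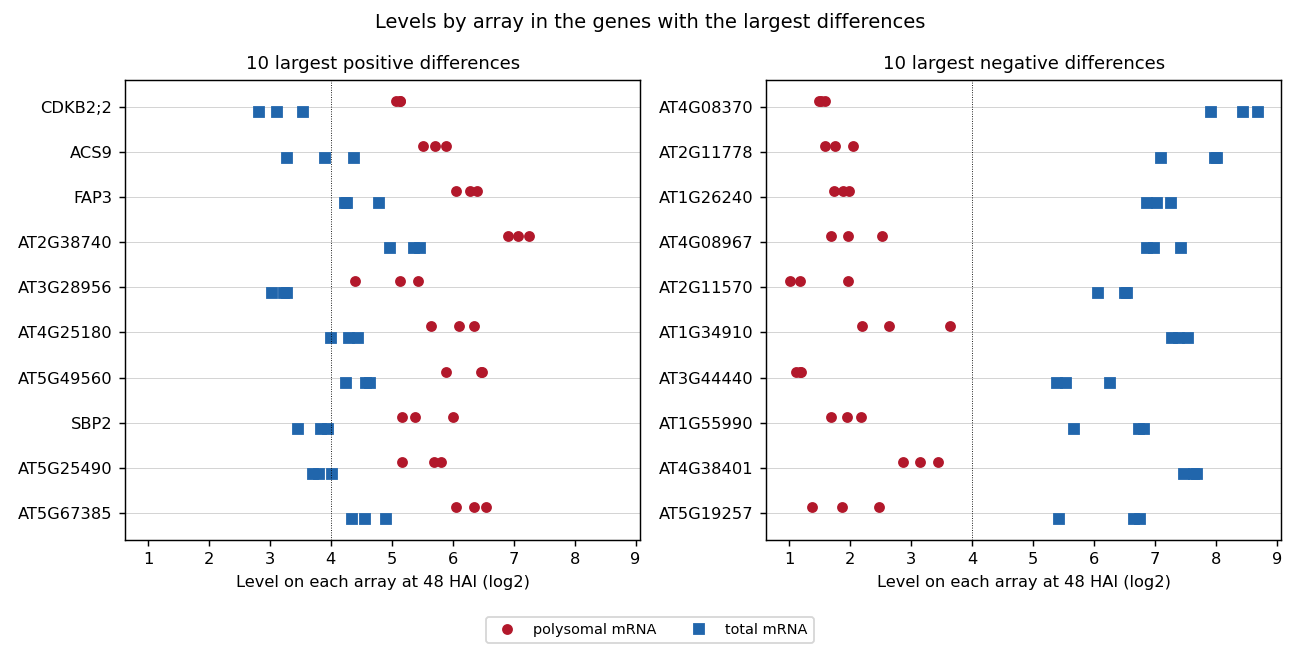
Log2 level on each array at 48 HAI of the 10 genes with the largest positive (left) and the 10 with the largest negative differences (right). Circles, polysomal mRNA; squares, total mRNA; dotted line, noise level of 4. No gene shown has overlapping fractions, by the rule of choice. On the left the fractions are less than 2 apart on average, and on the right polysomal levels are all below 4 and total levels all above 5.

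Among higher genes that were above the noise level on all 6 arrays, 411 in number, 207 had a symbol. Examples chosen after their values were seen include genes of membrane traffic. MEMB11, a SNARE protein of the Golgi, had 5.79, 6.34 and 6.03 in polysomal mRNA, against 4.63, 4.50 and 4.35 in total mRNA (difference 1.56, adjusted p = 7.74e-08). RABA1e, a Rab GTPase of the recycling pathway, had 6.41, 6.28 and 6.03 in polysomal and 4.52, 4.68 and 4.88 in total mRNA (difference 1.55, adjusted p = 1.78e-05). DDB1B, an adaptor of CUL4 ubiquitin ligases, had 6.97, 7.26 and 7.19 in polysomal and 5.58, 5.66 and 5.53 in total mRNA (difference 1.55, adjusted p = 1.27e-07). In all 3 genes every polysomal array exceeded every total array, and the replicates of a fraction lay close together. DMC1, a recombinase best known from meiosis, differed by 1.68, Hsp70-2 by 1.61, the inositol polyphosphate kinase IPK2BETA by 1.52 and the splicing factor SR45a by 1.40.

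The genes at the other end were of a different kind. Of the 50 genes with the lowest differences, 48 were below the noise level in polysomal mRNA, and 1 had a gene symbol. The lowest, AT4G08370, had 1.52, 1.59 and 1.48 in polysomal mRNA, against 8.44, 8.69 and 7.93 in total mRNA. AT2G11778 had 1.59, 1.75 and 2.04 in polysomal and 7.98, 8.01 and 7.10 in total mRNA. AT1G26240 had 1.73, 1.97 and 1.88 in polysomal and 6.87, 7.26 and 7.04 in total mRNA. These transcripts were thus strong on every total array and at background on every polysomal array. The differences were -6.82 (standard error 0.65), -5.90 (0.25) and -5.19 (0.46), with adjusted p-values of 1.81e-08, 7.48e-15 and 4.48e-09 in limma. A polysomal level under the noise level gives no more than an upper bound, so these sizes depend in part on the background.

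The 10 lowest loci shared one time course. Up to 26 HAI their means stayed at or below 4.13 in total mRNA, at 48 HAI they were between 5.73 and 8.35, and they remained high at 72 HAI. In polysomal mRNA none of the 10 had a mean above 3.15 at any of the 5 time points. The same pattern held for a larger set. Of the 1092 lower genes, 269 (24.6%) were above the noise level in total mRNA at 48 and 72 HAI but below it in total mRNA at the earlier time points and in polysomal mRNA at all 5. Of all genes tested 301 met these levels, and 269 of the 301 were called lower, so a negative difference was nearly fixed by the definition. The differences of this set are thus only a description: the median level at 48 HAI was 2.45 in polysomal and 4.80 in total mRNA. Of these 269 loci 54 (20.1%) had a symbol, against 43.3% of all genes tested, and the median gene length was 1125 bp, against 2375 bp. They made up 165 of the 278 genes that were lower by more than 2, a count that the defining levels also favour.

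**Figure D3:**
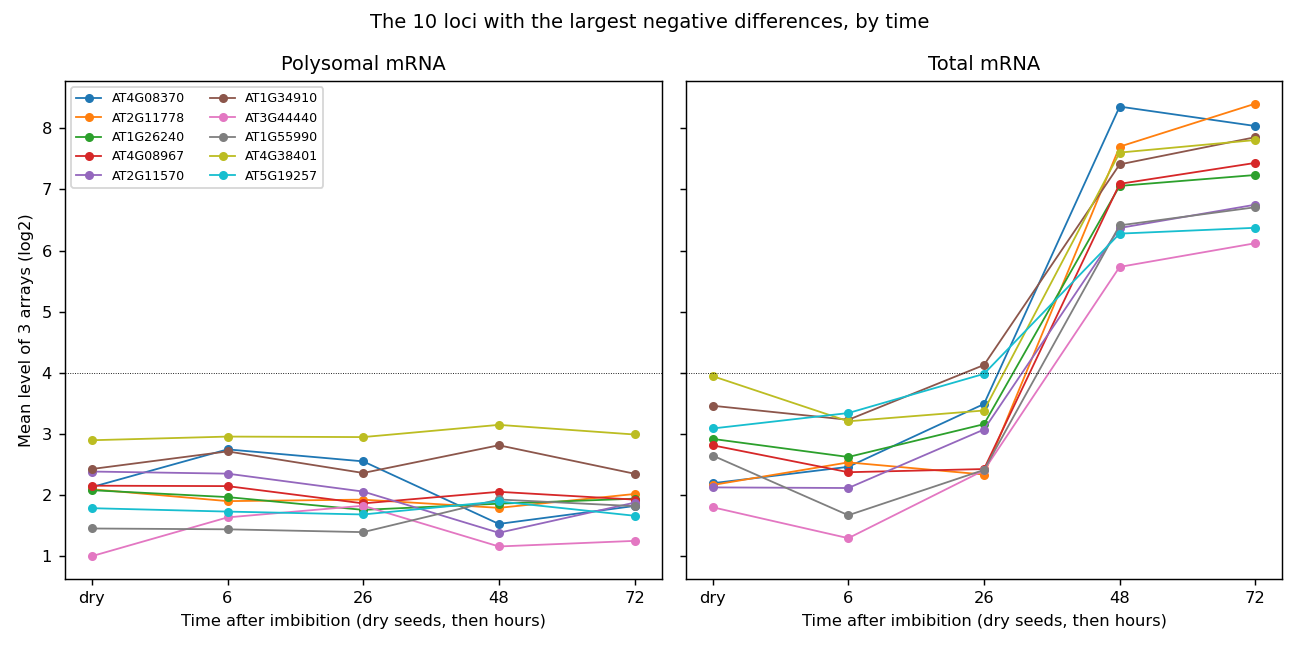
Mean log2 level (3 arrays) of the 10 loci with the largest negative differences, in dry seeds and at 6, 26, 48 and 72 HAI. Left, polysomal mRNA; right, total mRNA; dotted line, noise level of 4. Total mRNA is at most 4.13 until 26 HAI and between 5.73 and 8.35 at 48 HAI, and polysomal mRNA stays low throughout.

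Among lower genes with a symbol and a polysomal level under the noise were the MADS-box gene AGL51 (-3.55), the receptor-like protein gene RLP28 (-3.35), CDC20.3 (-3.01), the ubiquitin-related gene RUB3 (-2.89) and the homeobox gene WOX10 (-2.62). AGL51 had 2.04, 2.56 and 1.73 in polysomal mRNA, against 5.85, 5.57 and 5.54 in total mRNA, so its total signal was moderate and its polysomal signal at background. WOX10 had 2.01, 1.93 and 2.11 in polysomal mRNA, against 4.80, 4.19 and 4.91 in total mRNA. As a whole the lower genes were less often annotated and shorter than the rest. A symbol was given for 297 of them (27.2%), against 297 of the higher genes (47.0%), and their median length was 1820 bp, against 2397 bp for the higher genes. Genes under 500 bp made up 10.6% of the lower genes and 1.11% of the higher genes, against 2.07% of all genes tested. In the shortest decile of gene lengths, up to 1115 bp, the median difference was -0.15 and 17.5% of genes were lower. In the longest decile, from 4642 bp, these values were 0.19 and 1.37%.

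A different group of lower genes was well measured in both fractions. Above the noise level on all 6 arrays were 396 of the 1092, 136 of them with a symbol. The genes described next were picked from the 30 lowest of these with a symbol after their values were seen, and they do not stand for all 30. PSL4, the beta subunit of the glucosidase of the endoplasmic reticulum (ER) that trims glycoproteins, had 5.06, 4.45 and 5.14 in polysomal mRNA, against 6.92, 6.75 and 6.47 in total mRNA (difference -1.83, adjusted p = 1.59e-07). The receptor kinase PEPR1, which senses Pep peptides, had 5.36, 4.85 and 4.47 in polysomal and 6.64, 6.25 and 7.01 in total mRNA (-1.74, adjusted p = 8.58e-06). For the auxin efflux carrier PIN7 polysomal values were 4.77, 4.58 and 5.25 and total values 6.83, 6.32 and 6.25 (-1.60, adjusted p = 3.4e-05). In each of these 3 genes every total array exceeded every polysomal array, and PEPR1 varied most between polysomal replicates.

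The mannan synthase CSLA02 differed by -1.63, the pectin methylesterase PME1 (AT1G53840) by -1.53, the pectate lyase-like protein PMR6 by -1.52, the receptor kinase RKL1 by -1.48 and the ER chaperone partner ATERDJ3B by -1.44. All 8 genes from PSL4 to ATERDJ3B were called lower in limma. PSL4, CSLA02, PME1, PMR6, RKL1 and ATERDJ3B were also called lower on the separate arrays of 26 HAI and of 72 HAI, with differences of -1.82 to -1.01. PEPR1 was called lower at 26 HAI (-1.16) and PIN7 at 72 HAI (-1.18). The same 30 also held AGO7, an argonaute protein of the trans-acting siRNA pathway (-1.45), the spliceosomal RNA gene U1.5 (-2.11), the snoRNA gene SNOR30 (-1.57), and NIMIN-2, CIL and ABCI4.

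Families defined by a shared stem of the gene symbol, 96 with 10 or more tested genes, were ranked by their median difference. As exceptions, the stems RABA to RABH were merged as Rab GTPases, and cytochrome P450 symbols as CYP, with other CYP symbols left out. This ranking was made after the values were seen, and it is a description without a test. The lowest was FLA, the fasciclin-like arabinogalactan proteins that are anchored to the outer face of the plasma membrane, with a median of -1.05, all 13 members negative and 9 called lower, where 6.40% of all genes tested were lower and 3.70% higher. FLA16 had 6.27, 6.07 and 6.06 in polysomal mRNA, against 8.07, 7.76 and 7.77 in total mRNA (difference -1.73, standard error 0.18, adjusted p = 8.14e-08). FLA8 had 8.07, 7.48 and 7.33 in polysomal and 9.0, 8.66 and 8.72 in total mRNA (-1.17, adjusted p = 0.000178). FLA7, the least affected member, had a difference of -0.20 and overlapping fractions. Next came PDIL, the protein disulphide isomerases that fold secreted proteins in the ER (median -0.79, 3 of 12 lower), and SCPL, the serine carboxypeptidase-like proteins of the vacuole and apoplast (-0.71, 5 of 17 lower).

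Below -0.5 were also TBL, which acetylate cell wall polysaccharides in the Golgi (median -0.66, 5 of 21 lower), KCS, the ER enzymes that elongate very-long-chain fatty acids (-0.62, 2 of 13), the beta-glucosidases BGLU (-0.56, 4 of 17), the cytochrome P450 enzymes CYP (-0.54, 18 of 90) and the receptor-like proteins RLP (-0.52, 5 of 15). In none of these 8 families was a member called higher, and their medians stayed negative with equal array medians, with a further quantile normalization and without any single array. The largest medians belonged to SYP, the syntaxins of membrane fusion (0.69, 15 of 18 positive, with SYP32 called higher at 1.15), and PUB, the U-box ubiquitin ligases (0.59, 3 of 18 higher and PUB25 lower). Ranked 9 and 14 from the top, and picked here for their roles, were the Rab GTPases and the initiation factors. The Rab GTPases had a median of 0.45 with 4 of 31 higher, namely RABA1d, RABA2b, RABH1e and RABA1e. A separate family with the stem RAB alone had a median of 0.19, and none of its 10 genes was called. The initiation factors EIF had a median of 0.37 with 18 of 19 positive and none called. These 4 medians stayed positive in the same alternatives.

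**Figure D4:**
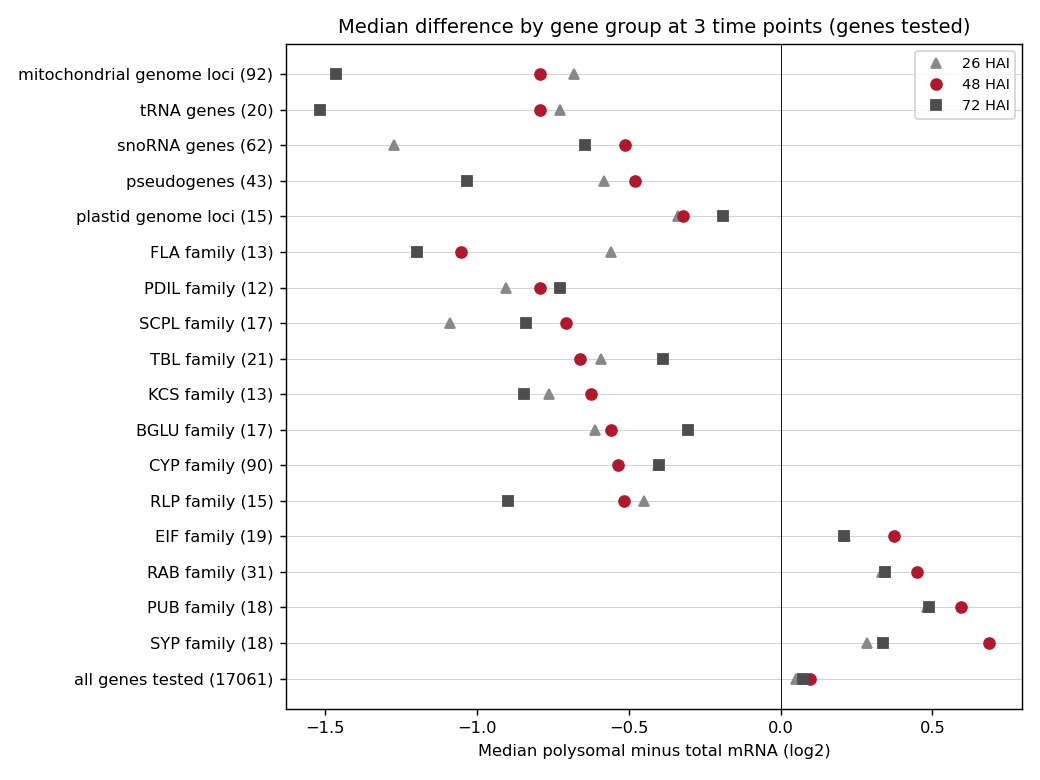
Median polysomal minus total mRNA (log2, horizontal axis) of gene groups at 26 (triangles), 48 (circles) and 72 HAI (squares), with the number of genes tested in brackets. The 8 families from FLA to RLP are negative at all 3 time points and the 4 from EIF to SYP positive at all 3, whereas the median of all genes tested stays between 0.05 and 0.10.

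Most listed genes of mitosis, DNA replication and the cytoskeleton had positive differences. Of 15 mitotic genes tested 4 were higher (3.70% of all genes were) and none lower (6.40% of all genes), with a median of 0.75 beside 0.10 for all genes. CDC20.3, a paralogue of the listed CDC20.1 and CDC20.2, is not on the list and was called lower (-3.01). CYCB1;3, a B-type cyclin, had 5.69, 5.38 and 5.34 in polysomal mRNA, against 4.40, 3.62 and 4.67 in total mRNA (difference 1.24, adjusted p = 4.35e-05). AUR2, an Aurora kinase, had 6.11, 5.93 and 5.98 in polysomal and 4.86, 4.32 and 5.13 in total mRNA (1.24, adjusted p = 0.000352). CDKB1;1 differed by 1.12. At the low end, CDC20.2 had a difference of -0.37 (adjusted p = 0.394) and CYCB1;4 of -0.20, so the list did not move as one. Without replicate 1 of total mRNA the median of the list was 0.51.

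The 10 DNA replication genes were all positive, where 9740 of the 17061 genes tested were. They lay at 0.11 for MCM5 to 0.92 for the helicase subunit MCM6, and none reached a difference of 1. MCM6 had 6.59, 6.50 and 6.57 in polysomal mRNA and 5.63, 5.64 and 5.63 in total mRNA, which leaves a wide gap between 2 tight groups. With equal array medians its difference was 1.04 and it was called, and MCM5 changed sign with a further quantile normalization. All 14 tubulins were positive, and TUB7 and TUA6, both at 1.04, were called higher (14.3%, beside 3.70% of all genes). TUA6 was no longer called with array quality weights, nor without total replicate 1, polysomal replicate 1 or polysomal replicate 2. Of 18 core histone genes 1 was higher (5.56%, beside 3.70% of all genes), the H2A.Z gene HTA11 (1.03), and the median was 0.22. The call of HTA11 was lost with a further quantile normalization and without total replicate 1 or polysomal replicate 2. HIS4, a histone H4 gene, lay lowest at -0.45.

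Genes of energy metabolism and of protein synthesis were mostly positive and rarely called. Of 7 genes of hypoxia and fermentation, all positive with a median of 0.75, SUS1 was called higher (14.3%, beside 3.70% of all genes). LBD41, the lowest at 0.14, turned negative without polysomal replicate 2. The sucrose synthase SUS1 had 4.75, 5.64 and 5.65 in polysomal mRNA, against 4.06, 3.93 and 3.09 in total mRNA (difference 1.65, adjusted p = 0.000145). Its polysomal replicate 1 lay below the others. Beta-oxidation and glyoxylate cycle genes, which convert the seed oil, had a median of 0.38, with 17 of 18 positive and none called. For PKT3, the peroxisomal thiolase, polysomal values were 10.97, 11.55 and 11.27 and total values 10.35, 10.57 and 10.48 (0.80, adjusted p = 8.85e-05). The medians were 0.41 for 12 translation factors, 0.41 for 12 subunits of the 26S proteasome and 0.31 for 36 photosystem and light-harvesting genes. None of the genes in these 3 lists was called, and LHCA2, a light-harvesting protein, was highest with 0.99.

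Ribosomal protein genes had small differences. Of 49 that RefSeq does not name as plastid or mitochondrial, none was called in either direction, and their median was 0.24 within a range of -0.38 to 0.81. Of 20 named as organellar, PSRP3/2 of the plastid ribosome was higher (1.08, a call lost without polysomal replicate 3) and the median was 0.17. This call is 5% of the list, beside 3.70% of all genes. Of 14 mRNAs with conserved upstream open reading frames, which can hold ribosomes back from the main frame, 1 was called higher (7.14%, beside 3.70% of all genes). This was ETT, an auxin response factor, with 6.76, 7.27 and 7.11 in polysomal and 5.41, 5.77 and 5.65 in total mRNA (difference 1.44, adjusted p = 1.05e-05). The lowest was bZIP2 at -0.71, which stayed within the limit of 1, and the median was 0.18.

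The lists of seed-specific mRNAs had no direction common to all of them at 48 HAI. Of 8 seed storage protein genes tested 7 were negative, with a median of -0.55 and no call in the main analysis. The positive one was CRU2 (0.78, adjusted p = 0.378 in limma), with all values under the noise level. SESA1, a 2S albumin, had 3.01, 2.94 and 3.64 in polysomal mRNA and 3.76, 4.62 and 4.25 in total mRNA (-1.01, adjusted p = 0.0518), close to the noise level. SESA1 was called lower with a replicate block (adjusted p = 0.034), with the compared arrays alone (0.0184), with array quality weights (0.016), and without total replicate 1 (0.0417) or polysomal replicate 3 (0.0392). The median of the seed storage list stayed negative across the alternatives (-0.71 to -0.32) and was -0.32 without total replicate 1. Of 14 LEA proteins, which protect dry cells, 7 were positive and 7 negative. ECP63 was lower (-1.42), with polysomal values of 4.33, 2.75 and 2.98 and total values of 4.87, 4.60 and 4.83. This call is 7.14% of the list, beside 6.40% of all genes. ATECP31 lay highest at 1.06 (adjusted p = 0.0521 in limma), with overlapping fractions and no call in the main analysis. ATECP31 was called higher with either other scaling, a replicate block, array quality weights, and without polysomal replicate 2. The medians of LEA proteins (-0.04), small heat shock proteins (-0.04), oil body proteins (-0.10), Aux/IAA repressors (-0.06), hormone and dormancy regulators (0.02) and lncRNA genes (-0.04) changed sign under one or both of the other scalings. Among the regulators ABI5, a transcription factor of abscisic acid signalling, had 4.69, 4.90 and 4.90 in polysomal and 5.99, 5.67 and 5.49 in total mRNA. This difference of -0.89 (adjusted p = 0.000431) was under the limit on size, and ABI5 was called lower with a further quantile normalization. RGL1 lay highest of the regulators at 0.90 (adjusted p = 0.00144 in limma), also under the limit and without overlap. RGL1 was called higher with either other scaling, and without total replicate 3 or polysomal replicate 2. Of the 9 regulators 5 were positive and 4 negative.

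Among lists of growing cells, extensins, alpha expansins and aquaporins were mostly negative. Root hair genes were mixed, with 4 positive and 5 negative, and of all 17061 genes tested 7321 were negative. Of 17 listed extensins, structural proteins of the wall, 8 had a symbol and were kept, and 7 were tested. Among these 7 EXT4 was lower (-1.13), HRGP1 was higher (1.24), and the median was -0.70. Each call is 14.3% of the list, beside 6.40% lower and 3.70% higher of all genes. HRGP1 was no longer called without total replicate 3 or polysomal replicate 2, EXT4 without polysomal replicate 3. Alpha expansins, which loosen the wall, had 12 of 15 negative, a median of -0.26 and no call. This median was -0.09 without total replicate 1, and -0.05 and -0.13 without polysomal replicates 2 and 3. Of 17 aquaporins 13 were negative and PIP2B was lower (-1.13, a call lost without total replicate 1). TIP3;1 lay highest at 0.86 and was not called (adjusted p = 0.19 in limma). Of 9 root hair genes SHV2 was lower (-1.27), and RSL4 lay highest at 0.65 and was not called. These single calls are 5.88% of the aquaporins and 11.1% of the root hair genes, beside 6.40% of all genes. The root hair median of -0.29 was -0.10 without total replicate 1, and the aquaporin median of -0.17 ranged over -0.35 to -0.05 across the alternatives. The 3 endosperm and seed coat genes had a median of -0.44, with the extensin-like EPR1 (AT2G27380) lowest at -0.97. Without total replicate 1 their median was -0.22, and without polysomal replicates 1 and 2 it was -0.78 and -0.06.

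**Figure D5:**
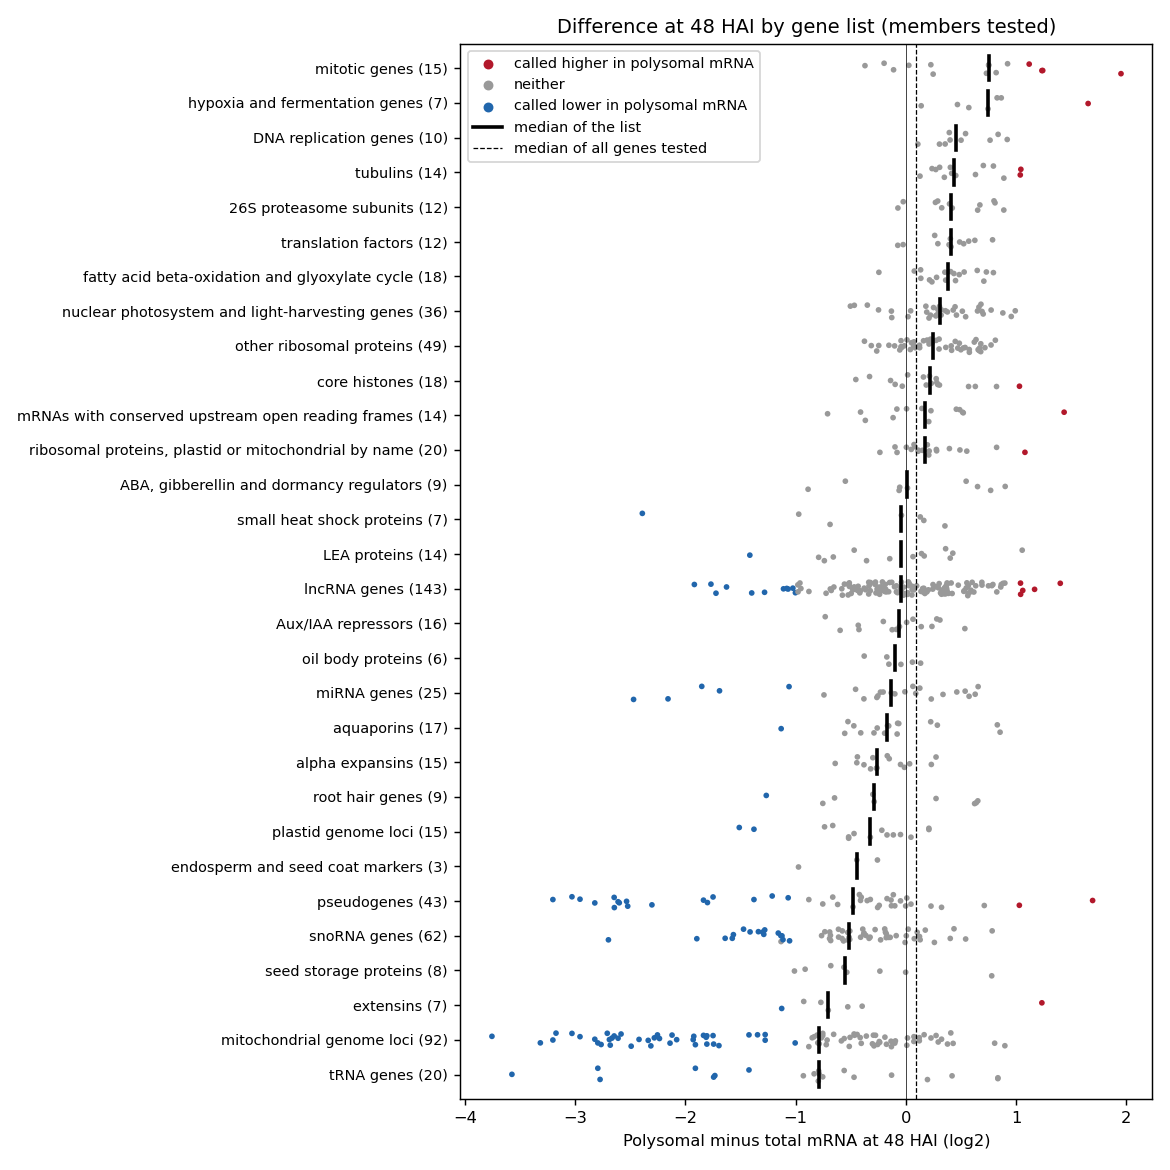
Polysomal minus total mRNA at 48 HAI (log2, horizontal axis) for each tested member of the gene lists, with the number tested in brackets. Coloured points, genes called higher or lower; grey points, neither; thick bars, list medians; dashed line, median of all genes tested. Mitotic and hypoxia genes are furthest to the right, and loci of the mitochondrial genome and tRNA genes furthest to the left.

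Loci whose RNAs are not read by cytosolic ribosomes were measured on the same arrays. Among the 92 tested loci of the mitochondrial genome, whose mRNAs are read by the ribosomes of the organelle, 41 (44.6%) were lower, against 6.40% of all genes, none was higher and the median was -0.79. The list holds 90 distinct sets of values, and 33 of the loci have a nuclear copy with identical values. ATMG01310 had 3.86, 3.25 and 3.18 in polysomal mRNA, against 7.05, 7.18 and 7.33 in total mRNA (difference -3.76, adjusted p = 6.8e-10). The share of lower loci differed with the level: of the 25 loci below 7 in total mRNA at 26 HAI 23 were lower at 48 HAI, with a median of -2.25. Of the 38 loci above 9 at that stage 5 were lower, with a median of -0.30. Plastid genome loci had a median of -0.32, and 2 of 15 were lower (13.3%, beside 6.40% of all genes), among them ATCG00230 (-1.51).

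Among genes of non-coding RNA, those for snoRNAs and tRNAs were lower more often than the 6.40% of all genes. Of 62 snoRNA genes, whose products guide RNA modification in the nucleolus, 16 (25.8%) were lower and none higher, with a median of -0.51. Locus AT5G66564 had 4.38, 4.01 and 4.69 on the polysomal arrays and 6.82, 7.54 and 6.82 on the total arrays (-2.70, adjusted p = 8.37e-05). Of 20 tRNA genes 7 were lower (median -0.79), and of 25 miRNA genes 5 were lower (median -0.13), with MIR401 at -2.47. Only 20 of 61 tRNA and 25 of 174 miRNA genes passed the noise filter, and without it the medians were -0.16 for tRNA and 0.14 for miRNA genes, so the direction of the miRNA median depends on the filter. Pseudogenes had 17 of 43 lower and 2 higher, with a median of -0.48. Of the mitochondrial loci 33 have a nuclear copy with identical values, and how many pseudogenes are such copies was not counted. The pseudogenes and the mitochondrial loci may thus not be separate measurements. In contrast, lncRNA genes had 11 of 143 lower (7.69%) and 5 higher (3.50%), close to the shares of all genes. Protein-coding genes still made up 945 of the 1092 lower genes.

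The differences at 48 HAI were next compared with those of the stages before and after, which come from other arrays. Across genes polysome occupancy at 48 HAI correlated with r = 0.850 with that at 72 HAI and r = 0.556 with that at 26 HAI. Of the 1092 lower genes 814 were also called lower at 72 HAI, where 7.56% of all genes were, and 200 at 26 HAI, where 2.79% were. Of the 632 higher genes 317 were called higher at 72 HAI (background 4.26%) and 29 at 26 HAI (0.697%). None of the lower genes was called higher at 72 HAI, and 2 were at 26 HAI. The median difference of the lower genes was -0.50 at 26, -1.44 at 48 and -1.44 at 72 HAI, and that of the higher genes 0.50, 1.16 and 1.0.

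Tested as a change of polysome occupancy from the stage before, 187 genes were higher at 48 than at 26 HAI (1.10%) and 563 were lower (3.30%). This test shares its 48 HAI arrays with the comparison above, so the calls are not independent of it: 451 of the 563 were also among the 1092 lower genes and 89 of the 187 among the 632 higher genes. CDKB2;2 changed most among the higher genes, by 2.36 (standard error 0.38, adjusted p = 0.000309 in limma). Its mean was 5.11 in polysomal mRNA at 48 HAI and 2.71 at 26 HAI, and in total mRNA 3.16 and 3.12. RBL15, a rhomboid-like protein, changed by 1.69 with a mean of 6.17 in polysomal mRNA at 48 HAI and 5.43 at 26 HAI, and of 5.04 and 5.99 in total mRNA. For CDKB2;2 the polysomal mean at 48 HAI is the only one of these 4 above the noise level, so its total levels and its change have no firm size. For RBL15 all 4 means were above it, with the polysomal mean higher and the total mean lower at 48 HAI. The call of RBL15 at 48 HAI itself was lost without total replicate 2.

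HSP17.6II, a cytosolic small heat shock protein, turned from enriched to depleted. At 48 HAI it had 1.65, 1.14 and 1.99 in polysomal mRNA, against 3.83, 4.19 and 3.94 in total mRNA (difference -2.39), and at 26 HAI its difference was 1.71. The change of -4.10 had an adjusted p of 1.01e-06 in limma, but levels were close to or below the noise level. The polysomal mean was 1.59 at 48 HAI and 4.28 at 26 HAI, and the total mean was 3.98 and 2.57. Of the 62 snoRNA genes 11 had a higher polysome occupancy at 48 than at 26 HAI and none a lower one, and the median of their differences was -1.27 at 26 HAI. Among mitochondrial loci 22 of 92 were lower and 2 higher than at 26 HAI.

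Against 72 HAI the differences were few. Polysome occupancy was higher at 48 HAI for 24 genes (0.141%) and lower for 11 (0.0645%). Leaving out single arrays gave 1 to 50 and 0 to 20 genes, and the fit to the arrays of these 2 time points alone called none in either direction with limma, with 209 and 108 genes at an unadjusted p below 0.05. AT1G51920 is an example of a lower polysome occupancy at 48 than at 72 HAI. It had 2.54, 2.64 and 3.33 in polysomal mRNA at 48 HAI, against 6.01, 5.45 and 5.72 in total mRNA, a difference of -2.89, and at 72 HAI its means were 7.53 in polysomal and 8.23 in total mRNA. The difference between the stages was -2.19 (adjusted p = 0.0146 in limma). Both fractions were higher at 72 HAI, and the polysomal values at 48 HAI were under the noise level, so this size is not firm. AT2G01023 went the other way, with -3.39 at 48 HAI and -6.26 at 72 HAI, and its total arrays at 48 HAI were uneven at 7.19, 9.83 and 7.13.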

How the data were processed

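Polysomal and total mRNA of Col-0 seeds at 48 HAI were measured on 3 Affymetrix Arabidopsis Gene ST arrays each. According to the methods, total RNA came from the same kind of raw extract, and polysomal RNA from the pooled gradient fractions of polysomes. The authors computed log2 values by RMA in R with a Brainarray probe set definition and deposited them for 27827 genes without a noise filter. The methods name a 3′ IVT kit and the labels whole-transcript kits, and which was used is not settled here. The genome build of the probe sets is not given in the sources used here, and 0 columns were left unused.

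In R 4.3.3 with limma 3.58.1, one mean per group was fitted to all 30 arrays, with empirical Bayes moderation and Benjamini-Hochberg adjustment over the 17061 genes tested. Calls required both an adjusted p below 0.05 and a difference above 1 in size. The fit was tested on simulated data. Figures were drawn with matplotlib. Symbols, gene types and gene lengths came from the RefSeq table for TAIR10.1, which held 16839 of the tested loci, and 7388 had a symbol. Of 356 loci on the gene lists, 63 without a symbol were left out. The losses fell unevenly: 18 of 39 core histones, 8 of 17 extensins, 7 of 16 small heat shock proteins and 16 of 25 LEA proteins were kept. Since lower genes had a symbol less often, these lists may miss lower members. Members and lists were chosen with earlier results of these data known. By rule, the 10 largest differences in each direction could be named, without overlap between fractions and with the higher fraction above 4. The highest and lowest member of each list and members of lists of 20 or fewer could also be named. So could, among the genes called at 48 HAI, the 5 largest changes of polysome occupancy in each direction against 26 and 72 HAI. Not every such gene is described in the text, and some list extremes are left out. Other genes named were chosen after their values were seen. Precision is limited by the number of arrays. Of the rows in the table, 182 share identical values with another row (88 distinct profiles), and such genes cannot be told apart. The alternatives tried are given in the closing section.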

Additional observations from a re-analysis of the deposited data

Results flagged for a closer look

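The following results differ between time points, by a test of the difference itself (limma, adjusted p below 0.05 and a change above 1 in size), and values are polysome occupancy at 48 HAI minus that of the other stage on the log2 scale. All share the arrays of 48 HAI with the comparison of the fractions at that stage, by which many of these genes were chosen, and no cause was tested. Against 26 HAI, polysome occupancy was lower at 48 HAI for AT4G08370 (-5.88), AT2G11778 (-5.49), AT4G08967 (-4.47), AT3G31350 (-4.25), AT4G20650 (-4.11), HSP17.6II (-4.10), AT4G38401 (-4.02), AT3G44440 (-3.99), AT2G11570 (-3.97), AT1G26240 (-3.79), AT1G55990 (-3.46), ATMG01310 (-2.88), AT2G01023 (-2.63), AT2G07686 (-2.62), MIR401 (-2.48), AT3G11395 (-2.36), AT1G51920 (-2.34), AT4G09649 (-2.17) and SHV2 (-1.25). It was higher for AT1G07119 (1.07), SBP2 (1.22), AT5G49560 (1.43), FAP3 (1.50), AT5G67385 (1.51), ACS9 (1.53), RBL15 (1.69), AT4G18940 (1.73), AT4G00780 (1.80), AT3G63052 (2.05) and CDKB2;2 (2.36). Against 72 HAI, it was lower at 48 HAI for AT1G51920 (-2.19), AT1G74800 (-1.35) and AT2G19870 (-1.09). It was higher for AT2G07722 (1.66), ATMG00170 (1.74), ATMG00620 (1.74), AT4G09649 (1.93) and AT2G01023 (2.87). ATMG00170 and ATMG00620 have identical values on all arrays and count as one measurement.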

How the results depend on the processing

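At 48 HAI (632 higher, 1092 lower), 1803 genes were lower without a noise filter, 985 were higher with equal array medians, and limma's test against a 2-fold change gave 6 higher and 290 lower. With no limit on the fold change 3834 were higher and 2597 lower. Leaving out single arrays gave 620 to 740 higher and 977 to 1326 lower genes, and leaving out a replicate number of both fractions 611 to 780 and 1009 to 1167. Against 26 HAI (187 higher, 563 lower), a noise level of 5 gave 362 lower, array quality weights 301 higher, no limit on the fold change 431 higher, and the test against a 2-fold change 0 higher and 60 lower, with 10 higher and 280 lower at an unadjusted p below 0.05. Single arrays left out gave 120 to 203 higher and 413 to 590 lower, with 120 higher without total replicate 3 of 26 HAI.

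The counts against 72 HAI (24 higher, 11 lower) were 10 higher and 1 lower without a noise filter, and 6 higher and 2 lower with array quality weights. A further quantile normalization gave 39 higher. Counting genes that exceeded the noise level on any single array gave 6 lower, and an intensity trend 7 lower. With the compared arrays alone and in limma's test against a 2-fold change 0 were higher and 0 lower, where the 2-fold test had 20 and 6 at an unadjusted p below 0.05. With single arrays left out the counts ranged over 1 to 50 higher and 0 to 20 lower. Without total replicate 1, 2 or 3 of 48 HAI 8, 39 or 1 were higher, and 4, 9 or 0 lower. Without polysomal replicate 1 or 2 of 48 HAI 3 or 14 were higher, and 1 or 8 lower. Without total replicate 1, 2 or 3 of 72 HAI 12, 3 or 16 were higher, and 1, 0 or 6 lower, and without polysomal replicate 2 or 3 of 72 HAI 50 or 18 were higher, and 20 or 4 lower. Both of the following were added after seeing the data. Without adjustment of p 298 genes were higher against 26 HAI and 213 higher and 118 lower against 72 HAI, and with one entry for each set of identical values 631 were higher and 1075 lower at 48 HAI.

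Whether the replicate numbers pair the fractions is not settled by the values. Deviations of same-numbered arrays at 48 HAI correlated weakly, with r = 0.201, 0.0491 and 0.0696. Arrays of different numbers gave r of -0.114 to 0.0576, and the 0.0576 of total replicate 2 with polysomal replicate 3 slightly exceeded its own number. With a replicate block 634 genes were higher and 1093 lower at 48 HAI, 198 and 592 against 26 HAI, and 28 and 13 against 72 HAI. Of 648 values of the 54 named genes called at 48 HAI, recomputed under the alternatives, 627 kept the call, 21 lost it and 0 reversed. Many of these genes were chosen for large or extreme differences on the same arrays, which made a kept call likely. The count is thus no test of how firm the calls are in general. Of 468 values of the 39 named genes not called, 29 passed the limits and 9 reversed. Reversed were PAB2 (0.042) and RPT2a (0.044) with equal medians and MCM5 (-0.0069) with quantile normalization. With single arrays left out, MAN7 ranged over -0.56 to 0.14, EXPA18 over -0.0040 to 0.50, OLEO2 over -0.27 to 0.39 and LBD41 over -0.026 to 0.27. The cause was not tested. The description by protein features was not run. Levels below 4 set a bound only, and a shift of polysome occupancy common to all mRNAs cannot be seen after normalization.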
